A study of Mus musculus with 24 samples.

Results

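The genes described here are the 34 members of the intraflagellar transport machinery and its cargo adaptor that were chosen by symbol: 14 genes of the IFT-B complex, 6 of the IFT-A complex, 3 kinesin-2 motor genes, 2 dynein-2 genes, 7 subunits of the BBSome and 2 of the chaperonins that assemble it. The rule for choosing them was function and used no measured value, although earlier results of these data were known when the list was drawn up. They were 34 of 54658 gene symbols, of which 34228 had a read in at least 1 library. RNA was measured in mouse embryos with both copies of Cep135 disrupted, labelled Cep135 (-/-) and called mutants, and in Cep135 (+/+) embryos, called controls. There were 8 groups of 3 libraries: mutant and control cortices at E11.5, mutant and control cortices at E14.5, and mutant and control neurospheres, spheres of cortical neural progenitors grown from the dorsal telencephalon, after 12 h and 24 h of culture. By their titles, the neurospheres came from the same 6 embryos as the E14.5 cortices, which share 1 title prefix, read here as 1 litter because the labels name none. CEP135 is a centriole protein, and its disruption was made in the germ line with Cas9 and guide RNAs against the second exon, so every cell of a mutant carried it. The labels do not say which of the alleles made with those guides these embryos carried. The authors describe the sequenced mutants as homozygous for the allele that left no detectable CEP135 in fibroblasts.

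A primary cilium is an antenna that grows from the older centriole of a cell that is not dividing, and it cannot make its own proteins. Trains of IFT-B and IFT-A proteins carry cargo along its microtubules, outward with kinesin-2 and back with dynein-2. The BBSome rides on these trains and carries membrane receptors out of the cilium. In the embryonic cortex, apical progenitors hold a primary cilium in the ventricle fluid, through which Hedgehog and other signals are read, and young neurons carry short cilia as well. Because centrioles are the base on which a cilium is built, the comparison of genotypes asks whether the messages of the transport machinery change when a centriole protein is lost.

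Promoter windows of 300 bases, 250 before and 50 after the RefSeq start site in build GRCm38.p6, matched 29 of the 34 members. They were searched for the X-box, the site bound by RFX transcription factors that is known from the promoters of many cilium genes. The search used the letters GTTNCCATGGNAAC, which read the same on both strands, and counted mismatches at the 12 letters other than N. An exact match was present in 0 of the 29 members and in 0.152% of the 27025 genes with a window. With up to 1 mismatch it was present in 2 members, or 6.9%, beside 1.12% of all genes, and with up to 2 mismatches in 5 members, or 17.2%, beside 3.99% of all genes. The 5 windows are shown because the site is the feature of sequence that some of the members share. The capitals mark the X-box match on the strand of the gene.
Bbs7, 1 mismatch: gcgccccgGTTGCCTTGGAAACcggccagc
Ttc26, 1 mismatch: ccggcggcGTTGCCGTGGAAACggagctcg
Bbs1, 2 mismatches: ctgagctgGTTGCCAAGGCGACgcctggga
Ift22, 2 mismatches: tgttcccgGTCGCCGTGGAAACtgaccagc
Ift57, 2 mismatches: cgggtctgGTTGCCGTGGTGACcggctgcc
The Bbs7 window is chr3:36613489-36613518 on the minus strand, and its match begins 121 bases before the start site. The Ttc26 window is chr6:38381483-38381512 and the Ift22 window is chr5:136908109-136908138, both on the plus strand, and both matches begin 33 bases before the start. The Ift57 window is chr16:49699199-49699228 on the plus strand, with its match 87 bases before the start. The Bbs1 window is chr19:4906605-4906634 on the minus strand, and its match lies just after the start site. A match to these letters is a description and was not tested for binding.

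The members had very different numbers of reads. Values are read counts divided by 1 size factor per library, called normalized read counts, and they were not divided by transcript length because the libraries sample the 3′ end of each transcript. The highest were those of Kif3a, a motor subunit of kinesin-2, with 1283 to 2696 over the 24 libraries, of Bbip1, the smallest BBSome subunit, with 611 to 1374, and of Kif3b, the partner of Kif3a, with 366 to 1386. Ift20, which also serves the Golgi, ranged from 387 to 810, and Ift74, an IFT-B core protein that binds tubulin with Ift81, from 265 to 902. At the other end, Kif17, a kinesin-2 motor that works as a pair of its own kind, ranged from 0 to 8.22 and had no read in 8 libraries. Bbs5, a BBSome subunit, reached 15.5, and Ttc30b, an IFT-B protein with near-identical copies Ttc30a1 and Ttc30a2 in the genome between which reads may be split, reached 27.6. No member was on chromosome 18, and the member nearest to Cep135 was Wdr19, 11.3 Mb away on chromosome 5.

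**Figure D1:**
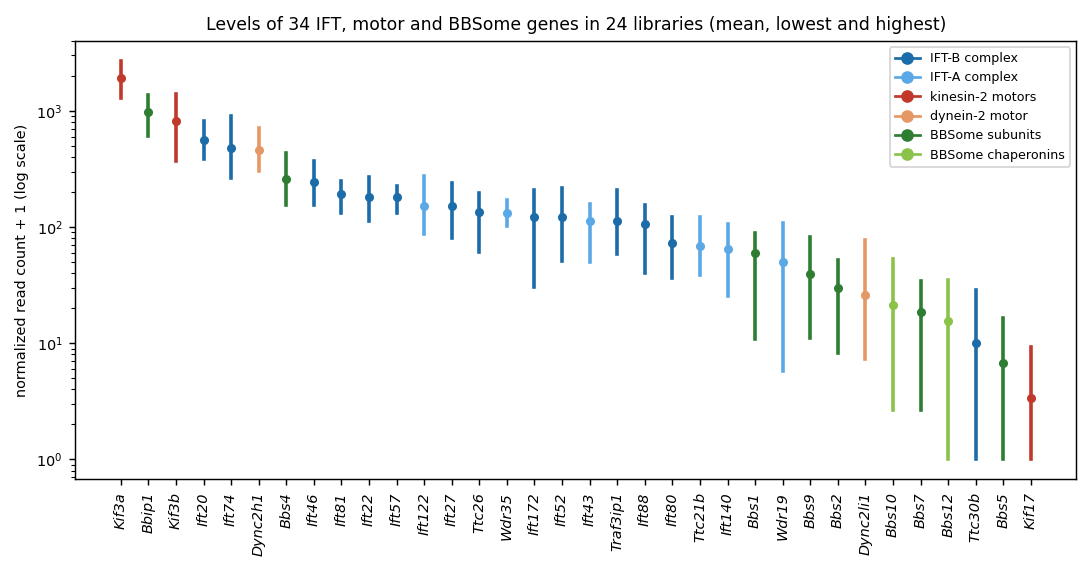
Normalized read count + 1 (log scale) of each of the 34 members over the 24 libraries, with the point at the mean and the line from the lowest to the highest library, coloured by complex. Kif3a, Bbip1 and Kif3b lie at the top, and Bbs5 and Kif17, with means of 5.7 and 2.41, at the bottom.

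The libraries held 4732781 to 11645213 reads on genes, and 6.11% to 34.8% of each library fell on Gm42418, which holds ribosomal RNA sequence. Cep135 itself had a mean of 227 ± 54.7 in mutant and 206 ± 56.5 in control E14.5 cortices (SD, n = 3 each) and overlapped between genotypes in each condition, which checks no label, since the 3′ tag lies outside the deleted part. At 24 h the mutant libraries were deeper than the control libraries, and Gm42418 took 20.5% to 23.0% of the mutant and 6.26% to 13.9% of the control libraries. All 3 control embryos at E14.5 were male by their transcripts, while 2 of the 3 mutants were female. Summed markers of postmitotic neurons were 27614 to 37022 in the E14.5 cortices and 23103 to 37875 in the neurospheres, so libraries labelled as progenitors carried neuron messages at the level of the cortex. Differences were tested with limma on log2(normalized read count + 1) over all genes whose mean was 10 or more in the libraries compared. A member was called when its Benjamini-Hochberg adjusted p was under 0.05. On this scale changes of members with few reads are understated.

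No member was called between genotypes in any condition by limma, and edgeR and DESeq2 on recovered whole reads, run at E14.5, 12 h and 24 h, called 0 as well. In E11.5 cortices 0 of 31 members tested were called, beside 0.0149% of 13406 genes. Of those genes 991 had an unadjusted p under 0.05, beside 0 members. The smallest p there was that of Traf3ip1, which encodes the IFT-B subunit IFT54. Its values were 65.8, 90.3 and 57.0 in the mutants against 81.6, 141 and 81.6 in the controls, so the groups overlapped, and the log2 fold change was -0.49 ± 0.26 (SE, limma adjusted p = 0.681). Its direction turned with a term for the Gm42418 share (0.04), and without 1 library each it was -0.67 to -0.22. Ttc21b, the IFT-A subunit IFT139, had 71.0, 80.3 and 95.9 in the mutants against 71.5, 59.4 and 60.6 in the controls (log2 fold change 0.36 ± 0.19, SE, limma adjusted p = 0.681). Only 1 of its control values lay within the mutant range. Kif3b had 366, 499 and 405 against 439, 485 and 517, which overlapped (log2 fold change -0.19 ± 0.14, SE, limma adjusted p = 0.754). Some marker sums stood apart at E11.5. Choroid plexus and cortical hem markers were 2078 to 2307 in mutants and 1512 to 1881 in controls. Endothelium markers were 880 to 1039 against 773 to 849, and liver markers 79.2 to 875 against 49.0 to 51.4. Ventral telencephalon markers were lower in mutants, at 935 to 1142 against 1345 to 1586. Their part in these values was not tested.

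In E14.5 cortices 0 of 32 members were called, beside 0.0736% of 13583 genes. Unadjusted p was under 0.05 for 2 members, beside 1236 of those genes. Ift122, an IFT-A subunit, had 276, 197 and 184 in the mutants against 152, 151 and 163 in the controls. The 3 mutants lay above the 3 controls, with a log2 fold change of 0.47 ± 0.18 (SE, limma adjusted p = 0.507), and the exact permutation test, two-sided, gave p = 0.1, the smallest that 3 against 3 allows. Ift172, the largest IFT-B subunit, had 164, 147 and 112 against 100, 88.6 and 115 (log2 fold change 0.46 ± 0.19, SE, limma adjusted p = 0.519). Ift20 had 469, 485 and 559 in the mutants against 585, 569 and 732 in the controls, so here the mutants were the lower group, at a log2 fold change of -0.31 ± 0.14 (SE, limma adjusted p = 0.551). Mutant and control values did not overlap for 5 of the 32 members, or 15.6%, beside 13.7% of all genes. Ift122 and Ttc26, an IFT-B subunit needed for the transport of motility proteins, were the higher ones, and Ift20, Ift52 and Ttc30b the lower ones. The share was close to that of all genes. Marker sums of other kinds of cell also stood apart at E14.5 without overlap. Those of postmitotic neurons were 27614 to 28583 in the mutant and 35041 to 37022 in the control cortices, those of proliferation 11504 to 14351 and 8832 to 11372, and those of microglia 635 to 777 and 345 to 378. Their part in these values was not tested. At E11.5 no member was free of overlap, beside 13.3% of all genes.

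In the neurospheres the spread between libraries was wider. At 12 h 0 of 30 members were called, beside 0.0% of 13389 genes. Of those genes 650 had an unadjusted p under 0.05, and so did 1 member. This was Kif3a, with 1969, 1982 and 1951 in the mutants against 2688, 2422 and 2239 in the controls. The mutants lay below the controls by a log2 fold change of -0.31 ± 0.13 (SE, limma adjusted p = 0.913), and Kif3a was the 1 member without overlap, or 3.33%, beside 11.0% of all genes. Kif3b had 877, 940 and 695 against 1386, 923 and 840, with overlap (log2 fold change -0.30 ± 0.20, SE, limma adjusted p = 0.913). Bbs1, the BBSome subunit that meets the membrane GTPase Arl6, had 48.7, 42.1 and 9.85 against 61.3, 47.0 and 66.0. Its low value came from mutant 6, and its log2 fold change was -1.04 ± 0.58 (SE, limma adjusted p = 0.913). Ift172 had 131, 150 and 29.6 against 127, 166 and 85.8, and the lowest was again mutant 6. With a term for the sex of the embryo Ift172 was the 1 member called at 12 h, but all 3 controls and only mutant 6 were male, so this fit set 1 mutant library against 3 controls (log2 fold change -2.01) and gives no test of the genotype. Mutants 1 and 2 lay within the range of the controls. Some marker sums stood apart at 12 h. Choroid plexus and cortical hem markers were 4657 to 15971 in mutants and 1042 to 3745 in controls. Motile cilium markers were 100 to 146 against 55.1 to 78.7, and intermediate progenitor markers 1447 to 1662 against 1230 to 1316. Endothelium markers were 60.4 to 68.4 against 20.5 to 48.8, and microglia markers were lower, at 4.21 to 12.7 against 14.1 to 37.8. Their part in these values was not tested.

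At 24 h 0 of 29 members were called, beside 0.271% of 13300 genes. Of those genes 1414 had an unadjusted p under 0.05, and so did 1 member. Ift74 had 320, 415 and 493 in the mutants against 265, 295 and 303 in the controls, so the mutants were the higher group (log2 fold change 0.49 ± 0.18, SE, limma adjusted p = 0.321). Ift27, a small GTPase of IFT-B that links trains to the BBSome, had 105, 84.0 and 86.4 against 115, 140 and 126 (log2 fold change -0.46 ± 0.22, SE, limma adjusted p = 0.470). Ift43, an IFT-A subunit, had 105, 85.0 and 85.6 against 77.8, 48.9 and 67.5 (log2 fold change 0.52 ± 0.26, SE, limma adjusted p = 0.519). With Ttc26 and Wdr35 these made 5 members without overlap, or 17.2%, beside 16.2% of all genes. The mutant and control libraries also differed at 24 h in depth and in Gm42418, as given above, in summed liver markers, at 118 to 402 against 11.3 to 27.0, and in summed choroid plexus and cortical hem markers, at 5011 to 16662 against 814 to 3625. Sums were also higher in the mutant libraries for apical progenitors (12079 to 13277 against 9389 to 10593), intermediate progenitors (1270 to 1367 against 989 to 1095) and proliferation (5608 to 6491 against 4361 to 5342), and lower for postmitotic neurons (23620 to 28982 against 29423 to 35047). Summed motile cilium markers were 100 to 173 in the mutant and 71.0 to 92.5 in the control libraries. Their part in these values was not tested.

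Over the 12 cortices, with age as a term, 0 of 32 members were called, beside 0.139% of 13650 genes. Unadjusted p was under 0.05 for 1 member, beside 1189 of those genes. Ift81, the partner of Ift74, was 196 to 225 in the E11.5 controls and 210 to 249 in the E11.5 mutants, and 165 to 222 and 206 to 238 at E14.5 (log2 fold change 0.21 ± 0.10, SE, limma adjusted p = 0.571). The exact permutation test within age gave p = 0.04 before any adjustment for the 32 members. Ift172 (0.28 ± 0.13, SE) and Ttc21b (0.24 ± 0.13, SE) followed, with limma adjusted p of 0.571 and 0.628. The 95% interval of the log2 fold change lay between -1 and 1 for 31 of the 32 members, so that a change of 2-fold in either direction was outside it. The corresponding counts were 29 of 31 at E11.5, 29 of 32 at E14.5, 14 of 30 at 12 h and 21 of 29 at 24 h. The median half-width of these intervals over the 12 cortices was 0.28 on the log2 scale. Values summed over the 6 IFT-A genes were higher in the mutants without overlap at E11.5, at 711 to 744 against 625 to 686. The same held at E14.5 (633 to 703 against 573 to 627) and 24 h (480 to 557 against 371 to 443). At 12 h these sums overlapped (487 to 607 against 454 to 494). Kinesin-2 sums were lower in mutants at 12 h (2646 to 2926 against 3082 to 4077) and otherwise overlapped. Sums of the other complexes and the chaperonins overlapped, and no sum was tested. Of single genes, 13.3% at E11.5, 13.7% at E14.5, 11.0% at 12 h and 16.2% at 24 h were without overlap, and such a share was not computed for sums. At E11.5 no single member was free of overlap. The E14.5 cortices and the neurospheres came from the same embryos, so their sums are not independent and the pattern is only a description.

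**Figure D2:**
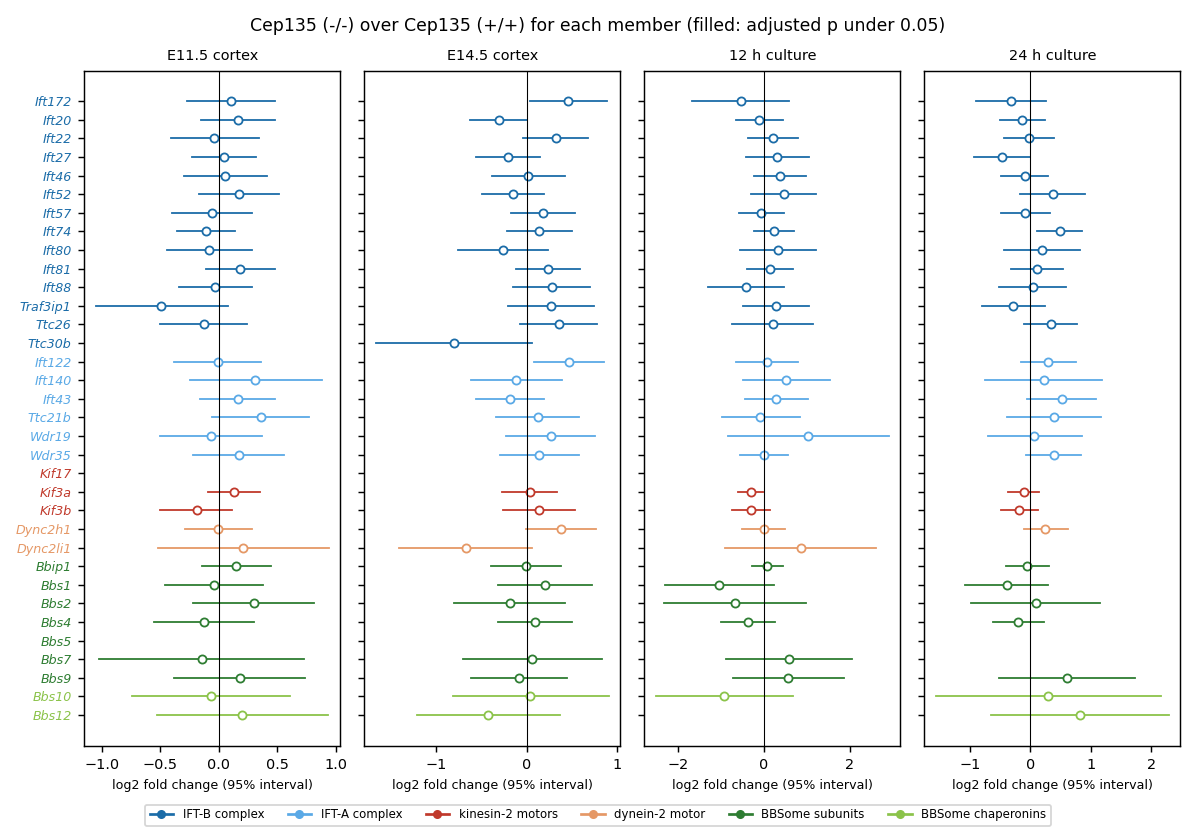
Log2 fold change of Cep135 (-/-) over Cep135 (+/+) with its 95% interval for each member in each of the 4 conditions (3 libraries per genotype), with colour for the complex and an open point for a member that was not called. All points are open, and the intervals are widest at 12 h.

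The genotype effect was also compared between conditions. Between E14.5 and E11.5 cortices 0 of 32 members were called, beside 0.0% of 13650 genes. Unadjusted p was under 0.05 for 2 members, beside 1070 of those genes. The smallest was Ift20, at a difference of -0.48 ± 0.20 on the log2 scale (SE, limma adjusted p = 0.620). Between 12 h neurospheres and E14.5 cortices 0 of 32 were called, beside 0.0% of 13601 genes. Of those genes 724 had an unadjusted p under 0.05, beside 0 members. Dync2li1, the light intermediate chain of dynein-2, had the smallest p there (difference 1.53 ± 0.79, SE, limma adjusted p = 0.793). Between 24 h and 12 h 0 of 30 were called, beside 0.0% of 13359 genes. An unadjusted p under 0.05 was found for 0 members, beside 318 of those genes. Ift27 had the smallest p (-0.77 ± 0.40, SE, limma adjusted p = 1.0).

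With age the members moved apart. Between E11.5 and E14.5 5 members rose and 6 fell of 32 tested, or 34.4%, beside 53.1% of 13650 genes called, 23.8% higher and 29.3% lower. The median log2 fold change of the members was -0.17, beside -0.08 over all genes. The share of members called was below that of all genes, and what follows is a description of which ones they were. The 2 kinesin-2 motor genes tested both rose, 5 of the 6 called IFT-B genes fell, and no IFT-A gene was called, although all 6 had a negative log2 fold change, from -0.33 to -0.07.

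Kif3b had 366 to 517 reads at E11.5, with a median of 462, and 633 to 992 at E14.5, with a median of 782. Every E14.5 cortex lay above every E11.5 cortex, 1.77-fold higher on average (log2 fold change 0.83 ± 0.12, SE, limma adjusted p = 3.73e-05). Kif3a was 1283 to 1554, with a median of 1378, and then 1548 to 2071, with a median of 1757, with values that just met (log2 fold change 0.36 ± 0.08, SE, limma adjusted p = 0.00165). Kifap3, which joins both motor subunits to cargo as the third part of the same motor, was in the list of other IFT and BBSome genes. It went from 618 to 768 at E11.5 to 1130 to 1300 at E14.5 and had the smallest p of that list (log2 fold change 0.85 ± 0.08, SE, limma adjusted p = 1.46e-07). The 3 genes of this motor therefore rose together. In neurons the same motor carries vesicles along axons as well as trains in cilia, and summed markers of postmitotic neurons were 7046 to 10332 at E11.5 and 27614 to 37022 at E14.5. Their part in the rise was not tested.

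Ift74 had the smallest p of the members. It was 690 to 902 at E11.5, with a median of 769, and 398 to 569 at E14.5, with a median of 460, without overlap and 1.66-fold lower (log2 fold change -0.73 ± 0.10, SE, limma adjusted p = 2.23e-05). Ift27 was 210 to 239, with a median of 224, and then 130 to 178, with a median of 154, again without overlap (-0.53 ± 0.10, SE, limma adjusted p = 0.000294). Ift52, which holds the IFT-B core together, was 158 to 214 and then 126 to 154, and its groups did not overlap either (-0.49 ± 0.11, SE, limma adjusted p = 0.00124). Each of these 3 had p = 0.005 in the exact permutation test within genotype, the smallest it can give. The IFT-B genes Ift80 (-0.44) and Ift88 (-0.32), the latter long known from a mouse with polycystic kidneys, fell by less. Dync2li1 fell from 45.7 ± 17.1 to 27.9 ± 10.9 (SD, n = 6 each), a log2 fold change of -0.70. Against this direction Ift57, a peripheral IFT-B subunit, rose by 0.36 on the log2 scale, from 149 ± 14.7 to 192 ± 21.1 (SD, n = 6 each). The members of IFT-B thus did not move as one.

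Of the BBSome, Bbs4 and Bbip1 rose and the other subunits tested were not called. Bbs4, which ties the BBSome to centriolar satellites, was 153 to 248 at E11.5 and 262 to 431 at E14.5, without overlap (log2 fold change 0.62 ± 0.14, SE, limma adjusted p = 0.00159). Bbip1, which also acts on microtubule stability, went from 782 ± 94.9 to 978 ± 156 (SD, n = 6 each; log2 fold change 0.32). The chaperonins Bbs10 and Bbs12 were at -0.47 and -0.54 and were not called.

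Summed apical progenitor markers were 14385 to 18131 at E11.5 and 9449 to 11292 at E14.5, and proliferation markers 17635 to 20648 and 8832 to 14351. In bulk tissue, fewer cells of a type and less RNA per cell cannot be told apart. The E14.5 embryos share 1 title prefix and the E11.5 embryos have 2 others, read here as litters, so that age and litter cannot be told apart. For E11.5 mutants B and C the description and the column header of the values give another prefix than the title, and the titles were used. No control carries that other prefix. If it names a litter, genotype and litter cannot be told apart for these 2 mutants in the genotype comparisons at E11.5 and over the 12 cortices. Ift74, Kif3b, Ift27, Bbs4 and Kif3a were called in each of 23 other ways of fitting the data, while Bbip1, Ift88 and Dync2li1 were called in 14 of 23, 11 of 23 and 12 of 22.

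In culture the direction was more uniform. After 12 h as neurospheres 9 members fell and 1 rose of 32 tested, or 31.2%, beside 30.2% of 13601 genes called. The share that fell was 28.1%, beside 16.1% of all genes lower, and the share that rose was set beside 14.1% of all genes higher. The median log2 fold change of the members was -0.38, beside -0.06 over all genes. Among those that fell, 5 were of IFT-B (Ift74, Ift22, Ift52, Ttc30b and Ift46), 2 of IFT-A (Ift122 and Ift140), 1 of the BBSome (Bbs2) and 1 a chaperonin (Bbs12), and the one that rose was Kif3a.

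Ift74 went from 398 to 569 in the cortices, with a median of 460, to 272 to 425, with a median of 309, and fell in each of the 6 embryos (log2 fold change -0.57 ± 0.13, SE, limma adjusted p = 0.00291). Ift22, a small GTPase of IFT-B, went from 182 to 270, with a median of 197, to 111 to 165, with a median of 151. No neurosphere library reached any cortex (-0.57 ± 0.14, SE, limma adjusted p = 0.00613). Ift52 went from 126 to 154, with a median of 132, to 50.3 to 113, with a median of 82.9, also without overlap (-0.71 ± 0.18, SE, limma adjusted p = 0.00831). For each of the 3 the exact permutation test over signs within embryo gave p = 0.0312, the smallest it can give. Ift122 (-0.71), Ift140 (-0.87) and Ift46 (-0.48) fell as well. However, Ift46 was called in 9 of 26 other fits, not by edgeR, DESeq2 or with the embryo as a block, and its exact p was 0.125. For Ift140, Bbs2 and Ttc30b the exact permutation test gave p = 0.0625, with 5 of the 6 embryos lower. Bbs2, Ttc30b and Bbs12 had few reads in culture, with means of 17.6, 4.77 and 6.04 at 12 h. Ttc30b and Bbs12, each with a mean of 15.7 in the cortices, passed the filter on the mean only through the cortices. A fall was thus favoured for both in advance, and their calls do not support a fall, although they are counted among the 9. The same filter held for all genes. Bbs12 had a limma adjusted p of 0.05 after rounding and was called in 5 of 25 other fits. Kif3a rose further, from 1548 to 2071 to 1951 to 2688 (log2 fold change 0.30 ± 0.10, SE, limma adjusted p = 0.0299), and was called in 15 of 26 other fits.

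This comparison depended on single choices. With a term for the Gm42418 share, which was 9.78% to 15.0% in the cortices and 10.7% to 34.8% at 12 h, 2 members were called in place of 10, while the median log2 fold change of the members stayed at -0.38 and that of Ift74 was -0.51. Without the E14.5 cortex of control 3 or of control 4 the count was 6. It was also 6 with no filter on low values, 4 in controls alone and 0 in mutants alone.

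The same cortices were therefore set beside the 24 h neurospheres, a comparison chosen after the values were seen. Here 19 of 32 members were called, or 59.4%, beside 41.6% of 13579 genes, and 16 of the 32 fell, beside 21.5% of all genes lower. The other 3 rose, beside 20.1% of all genes higher. The 16 include Ttc30b, Bbs7 and Dync2li1, whose means at 24 h were 6.24, 8.62 and 9.75, under the filter of 10. They passed it only through the cortices, which favoured a fall in advance, so their calls do not support a fall. The same filter held for all genes. The median log2 fold change of the members was -0.45, beside -0.05 over all genes. Of the 10 members called at 12 h, 9 were called here as well, all in the same direction, and the one that was not was Bbs12. Both comparisons use the same cortices, so they are not independent. Between 24 h and 12 h 0 of 30 members were called, beside 0.292% of 13359 genes, and edgeR and DESeq2 called 0 as well. Unadjusted p was under 0.05 for 1 member, beside 1288 of those genes. The smallest p was that of Bbs7, with 9.39 to 32.2 at 12 h and 1.69 to 13.8 at 24 h (log2 fold change -1.21 ± 0.52, SE, limma adjusted p = 0.469), followed by Ift43 (-0.36) and Bbs10 (-1.01), with adjusted p of 0.607 and 0.617.

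IFT-A showed 4 falls among its 6 genes at 24 h. Ift122 was 151 to 276 in the cortices, with a median of 174, and 91.5 to 136 at 24 h, with a median of 111, without overlap (log2 fold change -0.70 ± 0.13, SE, limma adjusted p = 0.000376). It was called in each of 26 other fits. Ift43 (-0.69), Ift140 (-0.77) and Wdr19 (-0.78), which encodes IFT144, fell as well, and Ift140 was called in 13 of 26 other fits, not by edgeR, DESeq2 or with the Gm42418 term. Ttc21b and Wdr35, the latter encoding IFT121, had log2 fold changes of 0.00 and -0.01. The difference between these 2 subunits and the other 4 was not tested.

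Of the 14 IFT-B genes 7 fell and 1 rose at 24 h. Ift52 went from a median of 132 to 56.3 to 102, with a median of 81.8 (-0.73 ± 0.15, SE, limma adjusted p = 0.000837), Ift22 to 134 to 164 (-0.54), Ift27 to 84.0 to 140 (-0.53), and Ift74 to 265 to 493 (-0.47). Ift88 (-0.44), Ift46 (-0.39) and Ttc30b (-1.33) completed the list, of which Ift88 was called in 14 of 26 other fits and Ttc30b in 17 of 23. Ttc30b fell in 5 of the 6 embryos, with p = 0.0625 in the exact permutation test over signs within embryo. Ift20, Ift57, Ift172 and Ttc26 lay between -0.11 and 0.02 and were not called. Ift80 and Ift81 were not called either, but their means were lower at 24 h. They were 76.2 ± 14.1 and then 55.6 ± 11.7 for Ift80, and 205 ± 27.9 and then 167 ± 21.1 for Ift81 (SD, n = 6 each). Traf3ip1, which was not called with age, rose from 67.1 to 108, with a median of 94.4, to 104 to 207, with a median of 135, and in each of the 6 embryos (log2 fold change 0.66 ± 0.18, SE, limma adjusted p = 0.00736).

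Both kinesin-2 genes tested rose at 24 h, and of the dynein-2 members 1 of 2 fell. Kif3a was 2117 to 2696 at 24 h, above every cortex (0.39 ± 0.09, SE, limma adjusted p = 0.00209), and Kif3b was 863 to 1323 against 633 to 992 (0.38 ± 0.12, SE, limma adjusted p = 0.0200). Kif3b rose in 5 of 6 embryos, with p = 0.0938 in the exact permutation test over signs within embryo. Kifap3 was not called, at 1040 to 1310 against 1130 to 1300. Dync2li1 fell from 16.9 to 44.3, with a median of 22.8, to 6.25 to 13.5, with a median of 9.33 and without overlap (-1.38 ± 0.31, SE, limma adjusted p = 0.00189). Dync2h1, the heavy chain of the same motor, had a log2 fold change of 0.02 and was not called.

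Of the BBSome, Bbs2, Bbs4, Bbs7 and Bbs9 fell at 24 h. Bbs2 went from 27.1 to 48.2 to 13.1 to 32.4 (-0.96 ± 0.26, SE, limma adjusted p = 0.00745), Bbs9 from 44.3 ± 6.55 to 24.7 ± 11.9 (SD, n = 6 each), and Bbs7 from 19.1 ± 3.93 to 8.62 ± 4.52. Bbs2, Bbs7 and Bbs9 form the core on which the BBSome is assembled. Bbs4, which had risen with age, was 262 to 431 in the cortices and 195 to 315 at 24 h (-0.38 ± 0.14, SE, limma adjusted p = 0.0378). It fell in 4 of the 6 embryos, the exact permutation test over signs gave p = 0.125, and it was called in 14 of 26 other fits, not with the Gm42418 term or with all 24 libraries. Bbip1 was at 0.05 and was not called. Kif17 and Bbs5 were below the level at which genes were tested.

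Of the 32 members tested, 9 were called with neither age nor culture. They were Ift20, Ift81, Ift172 and Ttc26 of IFT-B, Ttc21b and Wdr35 of IFT-A, Dync2h1, Bbs1 and Bbs10. Of all genes, 53.1% were called with age, 30.2% at 12 h and 41.6% at 24 h. The share of all genes called in none of these was not computed, so the count is only a description. Wdr35 stayed in the narrowest band, with 134 ± 21.0 at E11.5, 128 ± 22.0 at E14.5, 134 ± 12.6 at 12 h and 127 ± 25.1 at 24 h (SD, n = 6 each). Ift20 was at 580 ± 77.8, 566 ± 94.0, 523 ± 154 and 554 ± 95.2 in the same order, and Dync2h1, the heavy chain that pulls trains back, at 496 ± 47.3, 414 ± 88.3, 497 ± 115 and 416 ± 77.3. Within both IFT complexes and within dynein-2, some subunits were thus called and others were not. Ift81, the partner of Ift74, is an example, at 220 ± 22.7, 205 ± 27.9, 169 ± 21.2 and 167 ± 21.1, while Ift74 was at 783 ± 70.0, 475 ± 72.3, 319 ± 54.8 and 348 ± 87.4. Bbs1 and Bbs10 had few reads, with means over the 24 libraries of 59.1 and 20.2. A member that was not called is not shown to be unchanged.

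**Figure D3:**
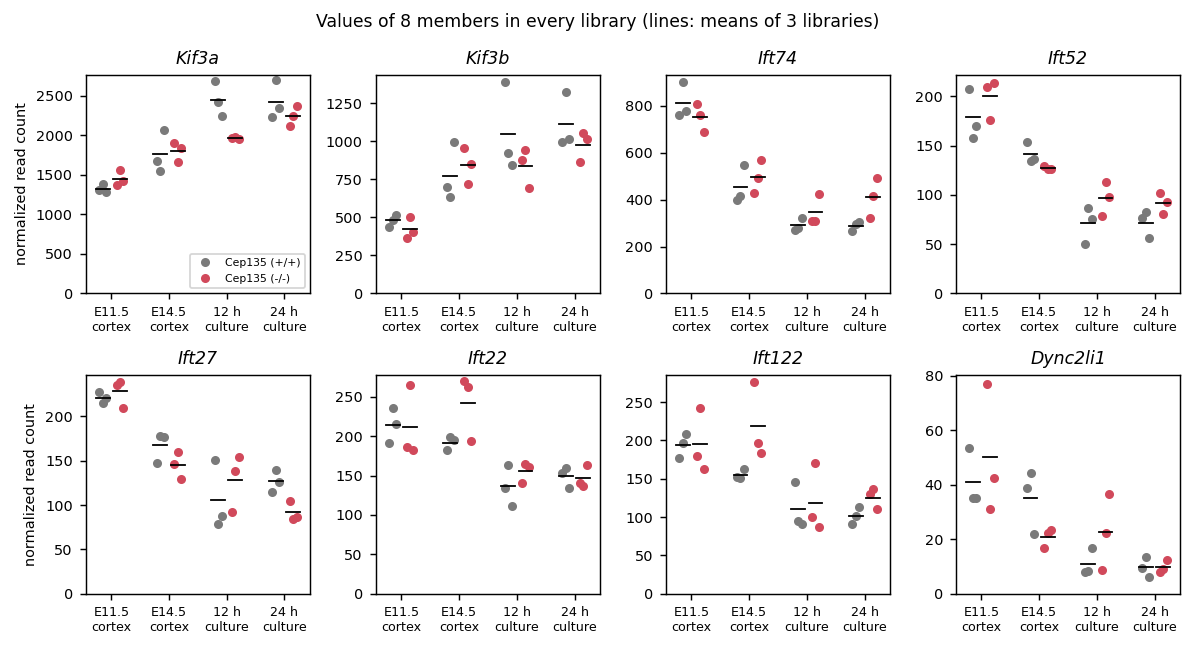
Normalized read count of 8 members in each of the 24 libraries, by condition, with grey points for Cep135 (+/+), red points for Cep135 (-/-) and a line at the mean of each group of 3. Kif3a and Kif3b climb from E11.5 to culture while Ift74, Ift52 and Ift27 descend, and the points of both genotypes lie among each other in most conditions.

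At 24 h, 17 of the 19 members were also called under the Gm42418 term, where Bbs4 and Ift140 were lost and Ift80 was gained, and all 19 with the embryo as a block for the pairing of cortex and neurospheres. The count was 12 in controls alone and 3 in mutants alone. The difference between genotypes in the change was itself tested and called 0 of 32 members, beside 0.0% of 13579 genes. Unadjusted p was under 0.05 for 2 members, beside 836 of those genes. Ift43 had the smallest (difference 0.70 ± 0.30, SE, limma adjusted p = 0.786). Markers of several other cell types differed between culture and cortex. Summed endothelium markers were 687 to 796 in the E14.5 cortices and 5.24 to 80.0 at 24 h, microglia markers 345 to 777 and 6.11 to 50.6, and proliferation markers 8832 to 14351 and 4361 to 6491. Intermediate progenitor markers were 2186 to 2498 in the cortices, 1230 to 1662 at 12 h and 989 to 1367 at 24 h. Erythroid markers were the higher ones in culture, at 37767 to 44791 in the cortices, 68408 to 149741 at 12 h and 44851 to 78165 at 24 h. Choroid plexus and cortical hem markers overlapped, at 1038 to 7798 in the cortices and 814 to 16662 at 24 h. Their medians went from 5177 to 1663 in controls and from 6594 to 7294 in mutants. Summed markers of motile cilia were 146 to 306 in the cortices and 71.0 to 173 at 24 h. The part of these in the result was not tested.

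**Figure D4:**
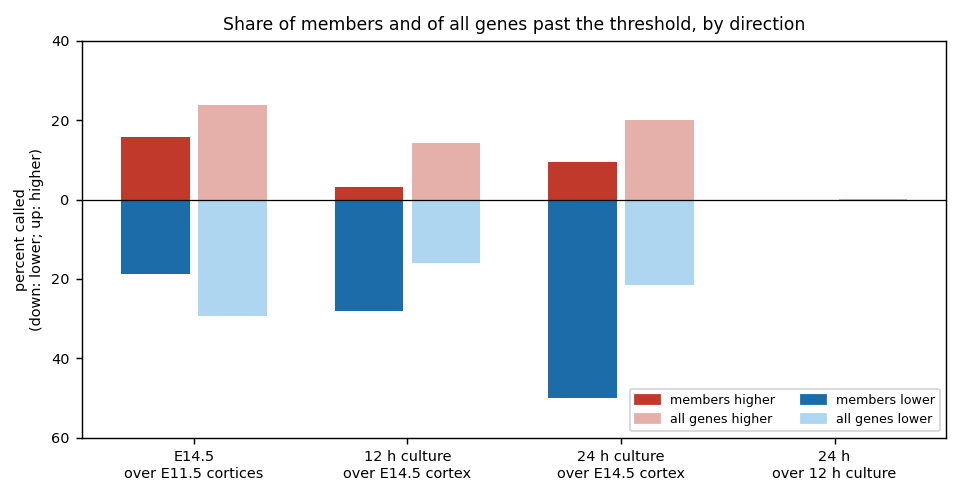
Percent of members (dark) and of all genes tested (light) called higher (above 0) and lower (below 0) with age and in culture. The members' bar for lower genes is longer than that of all genes at 12 h (28.1% beside 16.1%) and at 24 h (16 of 32 beside 21.5%), and shorter with age (18.8% beside 29.3%).

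Other cilium genes were read in the same fits. Between genotypes 0 genes of the 5 lists were called by limma in any condition. Unadjusted p was under 0.05 for 2 to 5 of the 56 to 58 tested, beside 650 to 1414 of the 13300 to 13583 genes. Sums of the RFX and Foxj1 list were higher in mutants without overlap at E14.5, at 972 to 1042 against 849 to 956. At 24 h they were 1418 to 1578 against 1161 to 1324. Distal appendage sums were lower in mutants at 12 h, at 4828 to 5187 against 5258 to 6209. The 24 h values were 5083 to 5271 against 5362 to 5986. The other sums overlapped, and none was tested. Beside these stand the shares of single genes without overlap, 13.7% at E14.5, 11.0% at 12 h and 16.2% at 24 h. The libraries of these conditions came from the same embryos, so a difference at 2 of them is not a repeat in separate embryos. The transition zone, the gate at the base of the cilium, had 2 genes that rose and 5 that fell with age among 16 tested, or 43.8%, below the 53.1% of all genes. In culture 6 fell and none rose at 12 h, and 8 fell and none rose at 24 h, beside 16.1% and 21.5% of all genes lower. B9d1, a gate protein, was 112 to 151 in the E14.5 cortices, 60.0 to 107 at 12 h and 66.6 to 100 at 24 h, with log2 fold changes of -0.70 and -0.77, and Mks1 was at -0.92 at 24 h after a fall of 0.75 with age. B9d2 also fell at 12 h (-0.80), and Ahi1 was the gate gene that rose most clearly with age (1.05).

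The distal appendage and ciliogenesis list had 1 gene that rose and 4 that fell with age among 15 tested, or 33.3%, again below the share of all genes, led by Ttbk2, a kinase that starts cilium growth (0.75), and Odf2 (-0.45). At 24 h 4 rose and 2 fell, led by Cep83 (0.58) and Kif24 (1.06), and at 12 h 2 rose, the same Cep83 (0.78) and Kif24 (1.38), and 1 fell. In culture the shares of all genes called were 30.2% at 12 h and 41.6% at 24 h, beside which the counts of this and the next lists stand. Among 8 ciliary membrane genes, Sstr3, a somatostatin receptor of neuronal cilia, was 0 to 4.33 at E11.5 and 5.52 to 46.2 at E14.5. With means of 1.15 and 20.3 it passed the filter only through the E14.5 cortices, so its call does not support a rise. Gpr161, an orphan receptor of cilia that holds back Hedgehog signalling, rose by 0.54 with age. Arl3 fell in culture at both times (-0.49 and -0.50), and Pkd1 rose at 24 h (0.57). Of the 13 other IFT and BBSome genes tested, 2 rose and 4 fell with age, led by Kifap3 and Rabl2 (-0.53). In culture Wdr60, a dynein-2 intermediate chain, rose at 12 h and 24 h (0.52 and 0.58), and Tctex1d2, a light chain of the same motor, fell at 12 h (-0.97).

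Of the 6 RFX and Foxj1 genes, 1 fell with age, 3 rose at 12 h, and 3 rose and 2 fell at 24 h. Rfx4 was 153 to 228 at E11.5, 63.5 to 108 at E14.5, 137 to 246 at 12 h and 258 to 398 at 24 h, with log2 fold changes of -1.12 with age and 1.09 and 1.78 in culture. Rfx7 rose by 0.75 and 0.74 at 12 h and 24 h. Of the 5 members with an X-box of up to 2 mismatches, Ift57 was called with age, higher, Ift22 was called at 12 h and 24 h, lower, Bbs7 was called at 24 h, lower, and Bbs1 and Ttc26 were called in none of these comparisons.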

How the data were processed

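RNA of 24 libraries was prepared by the authors with an oligo(dT)-primed 3′ kit, aligned to GRCm38 (TopHat 2.0.10, Bowtie 1.0.0, up to 3 mismatches and 20 multihits) and counted on GENCODE genes (HTSeq 0.6.1, stranded). The authors deposited the values as signal: read counts divided by 1 size factor per library. In 23 libraries 100.0% of values were whole multiples of 1 read (tolerance 1e-06). The steps in E11.5 control D could not be told from rounding, so count tests left out comparisons with it. On recovered reads edgeR and DESeq2 called 7 and 8 members at 12 h over E14.5 cortex, and 18 each at 24 h, where limma called 10 and 19.

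Groups came from the sample labels, where the description of 1 E14.5 embryo (6) gives another age than its title, which was used. Main fits used limma 3.58.1 (R 4.3.3) with a trend of variance on mean, on log2(value + 1) of genes averaging 10 or more, without a block. Alternatives used edgeR 4.0.16, DESeq2 1.42.0, other pseudocounts, filters and scalings, terms for sex, Gm42418, litter or embryo, and each library left out. Fits were checked on simulated data. Libraries of 1 embryo are paired by the labels, with correlations of deviations from the group means of -0.111 to 0.243 over 18 pairs, 12 above 0.1. Named were all members past the threshold, at least 3 per comparison by p and 1 per difference between genotypes, and of other cilium lists up to 2 genes each. Members and lists were chosen with earlier results of these data known. X-box positions are from RefSeq.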

Additional observations from a re-analysis of the deposited data

How the results depend on the processing

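The count of members called between genotypes was 0 in each alternative tried at E11.5, at E14.5, at 24 h and over the 12 cortices, and also for the differences between genotype effects. At 12 h it was 0 except with a term for embryo sex, where it was 1 in a fit that sets the only male mutant against 3 male controls and so tests no genotype. With age, where 11 were called, the count was 9 to 12 without 1 library each and 8 to 16 under the other alternatives. At 12 h over the E14.5 cortices, where 10 were called, it was 6 with no filter on low values, 2 with the Gm42418 term, 4 in controls alone, 0 in mutants alone, and 6 to 15 without 1 library each, with 15 without mutant 6 at 12 h. With the embryo as a replicate block it was 7. At 24 h over the E14.5 cortices, added after seeing the data, where 19 were called, it was 12 in controls alone and 3 in mutants alone, 16 to 18 without 1 library each, and 19 with the replicate block. The block changed no other count of calls, and between 24 h and 12 h the count was 0 in each alternative. Of the log2 fold changes of named members 1 reversed, that of Traf3ip1 between genotypes at E11.5, which was 0.04 with the Gm42418 term. The causes were not tested, other than that fits in 1 genotype have fewer libraries. Depth limits Kif17 and Bbs5, which were too low to test, and 3 libraries per group limit changes of under 2-fold in the neurospheres.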
